A study of Homo sapiens with 16 samples.

Results

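Nonmuscle myosin II is the motor that pulls on actin filaments and gives epithelial cells their contractile tension. Its heavy chains carry the motor, and its regulatory light chains switch it on when they are phosphorylated. The ROCK kinases, which act below the small GTPase RhoA, phosphorylate these light chains and also restrain the phosphatase that removes the phosphate. The collagen receptor DDR1 is known to act on myosin II, and myosin tension is part of how mammary epithelium responds to a collagen matrix.

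Transcripts of 10 genes of this machinery were followed in MCF10A cells, out of 26475 genes in the count table. They are the kinase genes ROCK1, ROCK2 and MYLK, the phosphatase subunit gene PPP1R12A, the heavy chain genes MYH9, MYH10 and MYH14, and the regulatory light chain genes MYL9, MYL12A and MYL12B. The set was selected by gene symbol, and it was chosen because the measured ROCK2 level was higher with both inhibitors than with collagen alone. The differences between inhibitor and collagen libraries are therefore given as a description. Of the 10 genes, 9 passed the filter on low counts in the fit of the collagen and inhibitor libraries, and MYH14 did not.

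MCF10A is a spontaneously immortalized, non-tumorigenic breast epithelial line, here labelled diploid and grown on plates. RNA-seq was carried out on 16 libraries, 4 in each of 4 groups. The control received DMSO, medium changes and no collagen. The collagen group received DMSO and, for the last 24 h, 0.05 mg/mL collagen in medium with NaOH for polymerization. Cells of the DDR1i group received the same collagen with 2 μM DDR1-IN-1, an inhibitor of the DDR1 kinase, for 48 h. Cells of the RUNXi group received it with 5 μM AI-10-104, which blocks the binding of RUNX proteins to their partner CBFβ, also for 48 h. NaOH and collagen came together, so that their effects cannot be told apart. Nothing states that the replicates were separate cultures, and p-values then measure only the spread between these samples.

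Total counts were 12184619 to 44332378 per library. Levels are given as normalized CPM, counts scaled by library size and TMM factor, and all fold changes are on the log2 scale with their standard error (SE). All 5 basal mammary markers (KRT5, KRT14, KRT17, TP63 and ITGB4) and all 4 epithelial markers were present, the basal sum at 10367 to 13646 CPM with DDR1i and 14613 to 20321 CPM in the other groups. Of 5 smooth muscle markers, MYOCD and LMOD1 stayed below 1 CPM in every library, and SMTN made up nearly all of a sum of 85.7 to 150 CPM in the control, 91.0 to 160.0 CPM with collagen, 139 to 243 CPM with DDR1i and 104 to 204 CPM with RUNXi. The part of these sums in the results was not tested. The fibroblast markers PDGFRA, PDGFRB, COL1A2 and LUM, the endothelial markers VWF and CDH5 and the leukocyte markers PTPRC, CD3E and ITGAM were also below 1 CPM throughout. Fewer cells of a type and less RNA per cell cannot be told apart in these bulk samples.

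Collagen replicates 3 and 4 each differed more from collagen replicates 1 and 2 than those differed from each other. The chi-square per degree of freedom, a measure of difference beyond sampling noise, was 18.3 between replicates 1 and 2. Against replicates 1 and 2 it was 36.5 and 40.5 for replicate 3, and 57.5 and 55.8 for replicate 4. Between replicates 3 and 4 it was 106. Pairs of libraries gave 25.8 to 62.1 within the control, 20.7 to 37.8 within DDR1i and 19.7 to 37.9 within RUNXi. By this measure the values of replicate 3 against replicates 1 and 2 were within the range of the control. The authors excluded collagen replicate 3 from their own comparisons, and the fits here do the same. It lay above the other 3 collagen libraries for ROCK1, ROCK2, MYH9, MYH10, MYL9, PPP1R12A and MYLK, and below them for MYL12A and MYL12B. The 8 inhibitor libraries enclosed it for ROCK1, ROCK2, MYH9, MYH10, MYH14, MYL12A and PPP1R12A. Collagen replicate 4 lay farthest in the other direction, with the lowest ROCK2 level and the highest MYL12B level of the 16 libraries. Values with replicate 3 and without replicate 4 are given with the comparisons they touch.

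**Figure D1:**
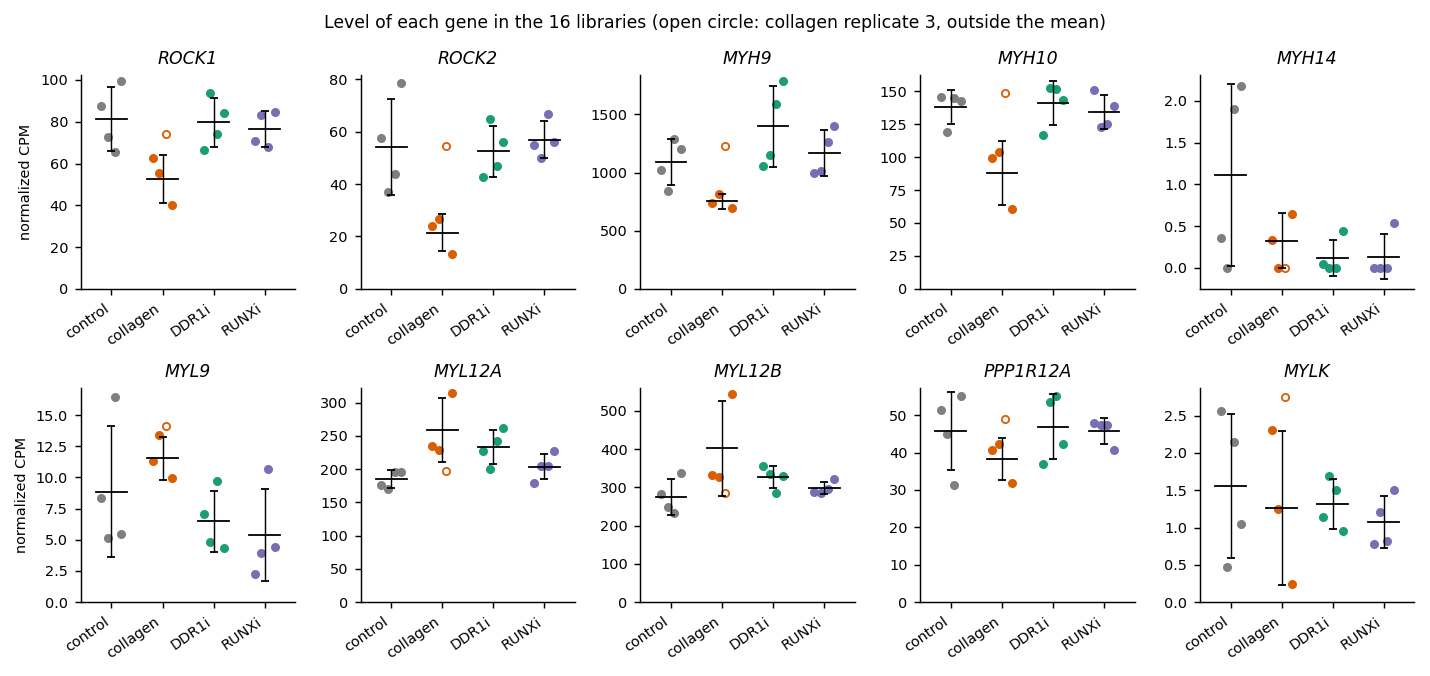
Level of each of the 10 genes in normalized CPM (linear axis) in the 16 libraries, by group; points are libraries, lines and bars the mean and SD, and the open circle is collagen replicate 3, which is outside the mean. For ROCK2 the 3 other collagen libraries lie at 13.5 to 26.8 CPM. All 12 libraries of the other groups lie above them, the lowest at 37.0 CPM. The share of all genes with this order was not counted.

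The kinases are described first. ROCK2 (ENSG00000134318, chr2:11319885-11488456 on the minus strand, GRCh37) encodes a kinase that acts on the light chain and on its phosphatase. Its level was 57.7, 37.0, 43.9 and 78.6 CPM in control replicates 1 to 4, and 23.9, 26.8 and 13.5 CPM in collagen replicates 1, 2 and 4. It was 42.7, 64.7, 47.1 and 55.9 CPM with DDR1i and 54.9, 50.1, 66.9 and 55.9 CPM with RUNXi. The 3 collagen libraries were below every other library, while collagen replicate 3, at 54.7 CPM, was among the inhibitor libraries. Of all genes tested, 8.37% were lower in these 3 libraries than in all DDR1i libraries. For the RUNXi libraries the share was 9.26%, and for the control libraries 6.87%. The share of genes below every other library at once was not counted, for ROCK2 or for the genes that follow. In order, the ROCK2 means were 21.4 ± 7.02 CPM with collagen (SD, n = 3), 52.6 ± 9.78 with DDR1i, 54.3 ± 18.3 in the control and 57.0 ± 7.11 with RUNXi (each n = 4). The upper 3 groups did not differ beyond their spread.

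ROCK1 (ENSG00000067900, chr18:18524573-18691774, minus strand) encodes the other ROCK kinase. It was at 87.4, 72.7, 65.3 and 99.6 CPM in the control and at 62.7, 55.6 and 40.2 CPM in collagen replicates 1, 2 and 4. The DDR1i libraries held 66.6, 93.8, 74.0 and 84.3 CPM and the RUNXi libraries 70.7, 83.4, 67.7 and 84.7 CPM. The 3 collagen libraries were again the lowest, but by a narrow margin: collagen replicate 1 was at 62.7 CPM and control replicate 3 at 65.3 CPM. Collagen replicate 3 was at 74.2 CPM. Of the 150-base stretches of the ROCK1 transcript, 3.35% also occur in the pseudogene ROCK1P1, which had 88 counts in all 16 libraries together.

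Per base of canonical transcript, ROCK2 made up 27.5% to 52.8% of the sum of both ROCK transcripts (median 42.8%). The ratio of ROCK2 to ROCK1 within a library was 0.747, 0.576, 0.760 and 0.893 in the control, and 0.431, 0.546 and 0.379 in collagen replicates 1, 2 and 4. With DDR1i it was 0.725, 0.781, 0.720 and 0.750, and with RUNXi 0.879, 0.679, 1.12 and 0.748. The difference between the groups was thus larger for ROCK2 than for ROCK1, since the ratio itself was lowest in the 3 collagen libraries. In collagen replicate 3 the ratio was 0.834. This ratio holds the measure by which ROCK2 was chosen, and it was not tested.

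MYLK (ENSG00000065534, chr3:123328896-123603179, minus strand) encodes the calmodulin-dependent myosin light chain kinase, the main activator of myosin in smooth muscle. Its level was low, at 0.242 to 2.75 CPM over the 16 libraries, with 6 to 115 counts. All groups overlapped, and no difference was detected. Its exons overlap MYLK-AS1 and MYLK-AS2 on the opposite strand, and the use of strand in the counting is not given in the sources used here.

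PPP1R12A (ENSG00000058272, chr12:80167343-80329240, minus strand) encodes MYPT1, the subunit that brings the phosphatase to myosin. ROCK inhibits the phosphatase by phosphorylating a threonine of this subunit. Its codon, 696 counted from the start codon, lies in the stretch chr12:80191152-80192309, which spans the junction of exons 15 and 16. The coding stretch is shown from 30 bases before the codon, with the codon in capitals:

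PPP1R12A: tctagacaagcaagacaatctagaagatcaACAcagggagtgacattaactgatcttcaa

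PPP1R12A transcripts varied little between groups. The level was 31.4 to 55.0 CPM in the control, 32.0 to 42.2 CPM in the 3 collagen libraries, 36.9 to 55.0 CPM with DDR1i and 40.7 to 47.8 CPM with RUNXi. All groups overlapped. Its exons overlap PPP1R12A-AS1 on the opposite strand.

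Among the heavy chains, MYH9 was the dominant transcript. Per base it made up 87.3% to 92.8% of the 4 heavy chain transcripts MYH9, MYH10, MYH14 and MYH11 in every library, and MYH10 made up 7.19% to 12.7%. MYH9 (ENSG00000100345, chr22:36677326-36784055, minus strand) encodes the heavy chain of nonmuscle myosin IIA, which drives fast contraction at the cell cortex. It was at 1025, 843, 1286 and 1205 CPM in the control, and at 739.6, 817 and 697 CPM in collagen replicates 1, 2 and 4. With DDR1i it was at 1056, 1153, 1589 and 1788 CPM, and with RUNXi at 997, 1011, 1263 and 1401 CPM. The 3 collagen libraries were the lowest of all, with control replicate 2 (843 CPM) close to them, and DDR1i replicates 3 and 4 were the highest. Collagen replicate 3 held 1232 CPM.

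MYH10 (ENSG00000133026, chr17:8377525-8534694, minus strand) encodes the heavy chain of nonmuscle myosin IIB, which holds tension for longer. The control libraries had 145, 119, 145 and 143 CPM, and collagen replicates 1, 2 and 4 had 99.6, 104 and 60.4 CPM. The DDR1i libraries had 117, 153, 152 and 143 CPM and the RUNXi libraries 151, 123, 125 and 139 CPM. Here too the 3 collagen libraries were below all others, and collagen replicate 3 (148 CPM) was not. The ratio of MYH10 to MYH9 per base was 0.124 ± 0.0146 in the control, 0.112 ± 0.0251 with collagen (n = 3), 0.101 ± 0.0215 with DDR1i and 0.114 ± 0.0239 with RUNXi (SD, n = 4), and the groups overlapped. The exons of MYH10 overlap those of NDEL1 on the opposite strand and of RN7SL129P on the same strand.

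MYH14 (ENSG00000105357, chr19:50691443-50813799, plus strand), which encodes the heavy chain of nonmuscle myosin IIC, was close to absent. It had 0 counts in 8 of the 16 libraries, and the most was 75 counts (2.18 CPM) in control replicate 4. A count of 0 allows up to 0.246 CPM in the shallowest of these libraries, control replicate 2. Control replicates 3 and 4 were the only libraries above 1 CPM. It passed the filter on low counts only in the fit of the control and collagen libraries, in which its level is highest in the control, and no fold is given. MYH11, the smooth muscle heavy chain, was at most at 1.21 CPM.

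The regulatory light chains come from 3 closely related genes. MYL9 (ENSG00000101335, chr20:35169900-35179850) is best known from smooth muscle and myoepithelium, and the neighbours MYL12A (ENSG00000101608, chr18:3247479-3256234) and MYL12B (ENSG00000118680, chr18:3261477-3278459) are expressed in most cells; all 3 lie on the plus strand. Their products carry the same threonine and serine that ROCK and MYLK phosphorylate. The coding stretch around this pair is shown for comparison of the 3 transcripts, with the 2 codons in capitals. It lies in exon 2 of each gene, at chr20:35173312-35173374, chr18:3253267-3253329 and chr18:3272921-3272983.

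MYL9: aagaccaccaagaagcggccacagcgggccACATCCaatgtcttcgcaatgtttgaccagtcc
MYL12A: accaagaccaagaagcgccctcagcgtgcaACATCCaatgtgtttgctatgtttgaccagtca
MYL12B: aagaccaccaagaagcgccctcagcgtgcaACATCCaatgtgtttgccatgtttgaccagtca

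Over these 63 bases MYL12A and MYL12B differ at 5 positions, MYL9 and MYL12B at 8 and MYL9 and MYL12A at 12. Their whole coding sequences are 95.2%, 81% and 79.1% identical. No stretch of 150 bases of any of the 3 transcripts occurs in a transcript of another gene, but shorter reads could be shared, and how the counting treated them is not given in the sources used here. MYL12A and MYL12B also overlap the antisense gene MYL12-AS1.

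MYL12B and MYL12A were the main light chain transcripts. Per base, MYL12B made up 48.7% to 58.5% and MYL12A 41.1% to 50.4% of the sum of the 3 genes, and MYL9 made up 0.188% to 1.44%. MYL12A had 176, 169.6, 196 and 196 CPM in the control and 235, 228 and 315 CPM in collagen replicates 1, 2 and 4. It had 228, 199.8, 243 and 262 CPM with DDR1i and 179, 205, 205 and 227 CPM with RUNXi. The 3 collagen libraries were above the control and RUNXi libraries and overlapped the DDR1i libraries, and collagen replicate 3 was at 197 CPM.

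MYL12B had 282, 249, 233 and 337 CPM in the control and 334, 328 and 545 CPM in collagen replicates 1, 2 and 4. With DDR1i it was at 355, 336, 286 and 329.8 CPM, and with RUNXi at 289, 286, 297 and 322 CPM. Collagen replicate 4 stood far above the rest. The other collagen libraries were within the DDR1i range and just above the RUNXi range, and collagen replicate 3 was at 285 CPM.

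MYL9 was a minor and variable transcript. It had 8.34, 5.16, 16.4 and 5.48 CPM in the control and 11.3, 13.4 and 9.94 CPM in collagen replicates 1, 2 and 4. It had 7.10, 4.81, 9.70 and 4.37 CPM with DDR1i and 2.28, 3.98, 10.7 and 4.46 CPM with RUNXi. All DDR1i libraries and 3 of the 4 RUNXi libraries were below the collagen libraries, with RUNXi replicate 3 inside their range, and control replicate 3 was the highest of all. Of all genes tested, 6.72% were likewise lower in all DDR1i libraries than in collagen replicates 1, 2 and 4. Collagen replicate 3, at 14.1 CPM, was on the side of the collagen group for this gene.

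The balance of light and heavy chain transcripts differed in collagen replicates 1, 2 and 4. The ratio of MYL12A and MYL12B to MYH9 and MYH10 per base was 2.72, 3.04, 2.12 and 2.74 in the control, and 4.74, 4.23 and 7.86 in collagen replicates 1, 2 and 4. It was 3.46, 2.85, 2.14 and 2.15 with DDR1i and 2.84, 3.03, 2.53 and 2.49 with RUNXi. The 3 collagen libraries were above all others, and collagen replicate 3, at 2.44, was not. The ratio rests in part on the contrasts by which the genes were chosen, and it was not tested. It sets short transcripts (958 and 1163 bases) against long ones (7451 and 7707 bases), and the part of length in it was not tested.

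**Figure D2:**
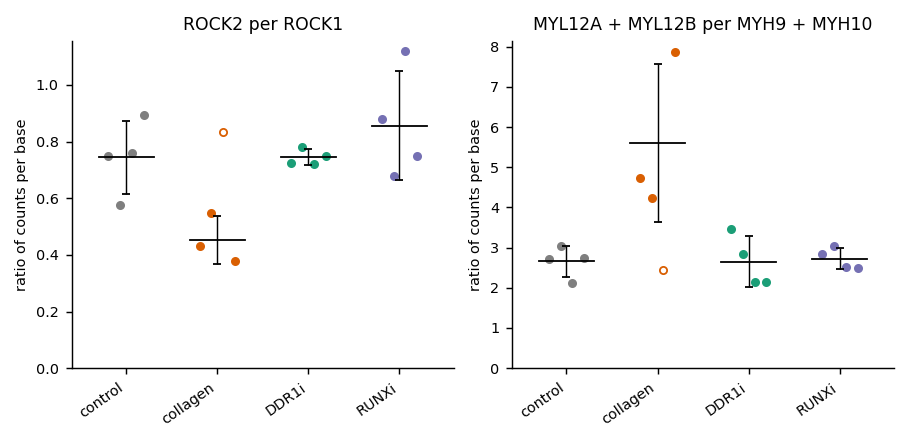
Ratio of counts per base of canonical transcript within each library, for ROCK2 to ROCK1 (left) and for MYL12A and MYL12B together to MYH9 and MYH10 together (right); points are libraries, lines and bars the mean and SD, and the open circle is collagen replicate 3, outside the mean. The other collagen libraries are the lowest for the ROCK ratio (0.379 to 0.546) and the highest for the chain ratio (4.23 to 7.86).

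Against collagen alone, ROCK1, ROCK2, MYH9 and MYH10 were higher with either inhibitor, while the light chain genes had negative values that edgeR did not call. ROCK1 lay near the threshold of 0.05, with an edgeR adjusted p of 0.0438 with DDR1i and 0.0518 with RUNXi, the latter not called. Of 11 fits that each left out 1 library, 4 called it with DDR1i and 1 with RUNXi. With DDR1i the log2 fold change was 1.30 ± 0.20 for ROCK2, 0.89 ± 0.16 for MYH9, 0.68 ± 0.16 for MYH10 and 0.59 ± 0.16 for ROCK1. With RUNXi it was 1.41 ± 0.20 for ROCK2, 0.64 ± 0.16 for MYH9, 0.61 ± 0.16 for MYH10 and 0.54 ± 0.16 for ROCK1. ROCK2 was thus at 2.46 times and 2.66 times its collagen level. PPP1R12A gave 0.29 ± 0.16 with DDR1i and 0.26 ± 0.16 with RUNXi.

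On the other side, MYL9 gave −0.83 ± 0.39 with DDR1i and −1.12 ± 0.39 with RUNXi. MYL12B gave −0.30 ± 0.14 and −0.43 ± 0.14, and MYL12A −0.15 ± 0.13 and −0.35 ± 0.13, in the same order. MYLK, with 0.069 ± 0.92 and −0.23 ± 0.92, was undetermined. The same 3 collagen libraries enter both comparisons.

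With an adjusted p under 0.05 as the call, 4 members were called higher with DDR1i (ROCK1, ROCK2, MYH9 and MYH10) and 3 with RUNXi (ROCK2, MYH9 and MYH10) by edgeR, which called none lower. With RUNXi, DESeq2 also called ROCK1 higher (adjusted p = 0.0216) and MYL12B lower (0.0406), and edgeR with no filter on low counts called ROCK1 higher (0.0170) and MYL9 (0.0252) and MYL12B (0.0185) lower. Over all 13548 genes tested, edgeR called 2.47% with DDR1i (1.69% higher) and 4.05% with RUNXi (2.59% higher). With RUNXi, DESeq2 called 1155 of 10618 genes, and edgeR with no filter on low counts called 1046 of 17911. Since these contrasts chose the genes, nothing is read from the counts. ROCK1, ROCK2, MYH9 and MYH10 were higher in all 4 libraries of either inhibitor than in the 3 collagen libraries, as were 8.37% of all genes with DDR1i and 9.26% with RUNXi. MYL9 was lower in all 4 DDR1i libraries than in the 3 collagen libraries, as were 6.72% of all genes. MYL12A and MYL12B were lower in all 4 RUNXi libraries, as were 8.90%.

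The calls rested on which collagen libraries were used. With collagen replicate 3 included, no member was called with either inhibitor, where 0.0674% and 0.449% of all genes were. ROCK2 then stood at 0.82 ± 0.30 with DDR1i and 0.93 ± 0.30 with RUNXi, and MYH9 at 0.68 ± 0.18 and 0.41 ± 0.18. Without collagen replicate 4, ROCK2 was the only member called with either inhibitor (0.62% and 0.876% of all genes), at 1.05 ± 0.18 and 1.17 ± 0.18. MYH10 then stood at 0.47 ± 0.14 and 0.40 ± 0.14, and MYL12B at −0.018 ± 0.11 and −0.14 ± 0.11.

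**Figure D3:**
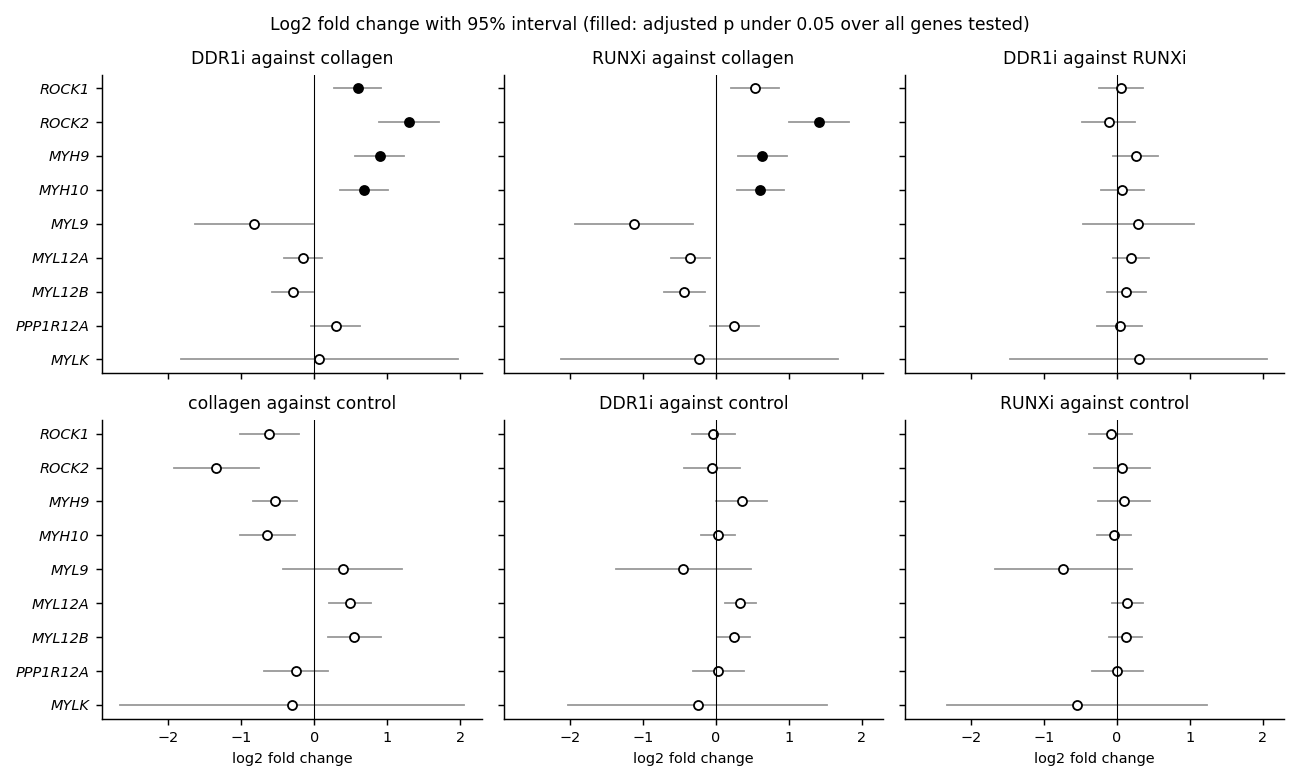
Log2 fold change of 9 genes (points) with its 95% confidence interval (lines) in the 6 comparisons, from edgeR's quasi-likelihood fits; filled points have an adjusted p under 0.05 over all genes tested. The filled points are ROCK1, ROCK2, MYH9 and MYH10 with DDR1i and ROCK2, MYH9 and MYH10 with RUNXi, each against collagen alone, the contrasts by which the genes were chosen.

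Transcript length went with direction among these genes. The genes higher with the inhibitors have long canonical transcripts (MYH9 with 7451 bases, MYH10 with 7707, ROCK2 with 8345 and ROCK1 with 9446), and the abundant light chain genes have short ones (MYL12A with 958 and MYL12B with 1163). MYLK, with 10113 bases, did not follow this order, and its interval was wide. MYL9, with 2786 bases, had more negative values (−0.83 with DDR1i and −1.12 with RUNXi) than the shorter MYL12A and MYL12B. PPP1R12A, with 5620 bases, gave 0.29 and 0.26. In length and in value it lay between the light chain genes and MYH9, MYH10, ROCK1 and ROCK2. After the dependence of each library's counts on transcript length had been fitted and subtracted, ROCK2 gave 1.01 ± 0.17 with DDR1i and 1.17 ± 0.18 with RUNXi and was the only member called. MYH9 then gave 0.62 ± 0.16 and 0.39 ± 0.16, MYH10 0.41 ± 0.14 and 0.38 ± 0.14, and ROCK1 0.27 ± 0.13 and 0.26 ± 0.13. Over all genes, 1.22% were then called with DDR1i (34 higher and 125 lower, against 229 and 105 before) and 1.58% with RUNXi (80 higher and 125 lower, against 351 and 198). The part of length in these differences was not tested beyond this removal.

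**Figure D4:**
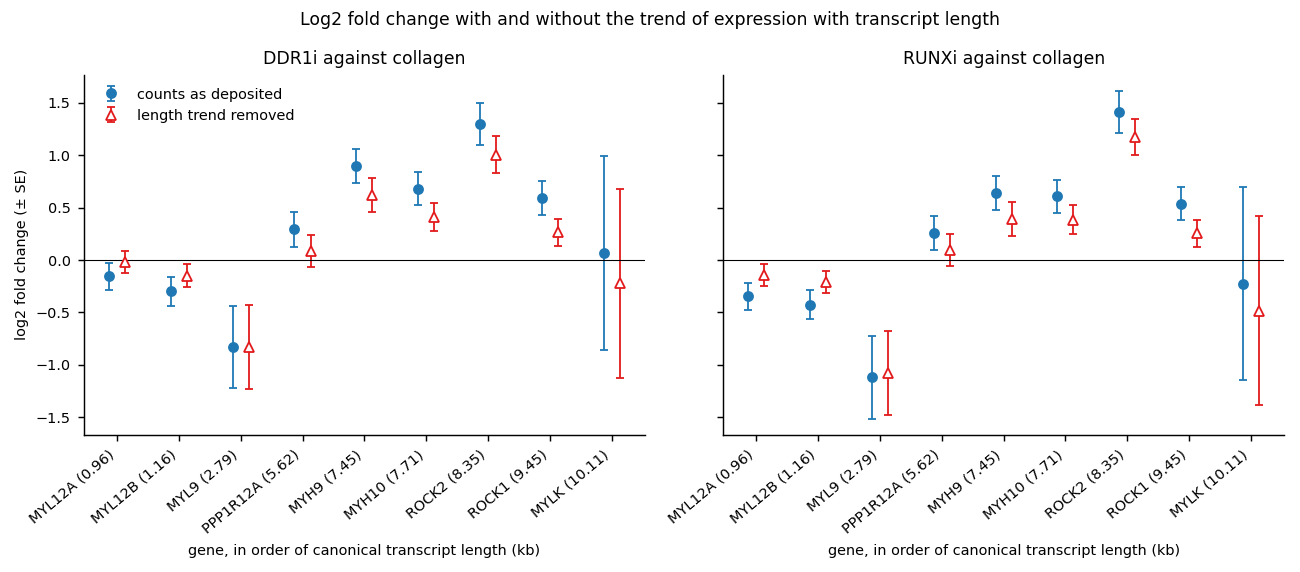
Log2 fold change with SE of 9 genes against collagen alone for DDR1i (left) and RUNXi (right), with the genes in order of canonical transcript length (kb in parentheses); circles are from the counts as deposited and triangles from the fit with the length trend removed. Removing the trend brings ROCK2, MYH9, MYH10, ROCK1, MYL12A and MYL12B closer to 0, with ROCK2 going from 1.30 to 1.01 for DDR1i and from 1.41 to 1.17 for RUNXi.

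DDR1i and RUNXi were compared directly, to ask whether the inhibitors left this machinery at different levels; the choice of genes did not use this difference. No member was called. ROCK2 gave −0.12 ± 0.18 (95% interval −0.48 to 0.25, adjusted p = 0.999), and MYH9, with the smallest adjusted p (0.913), gave 0.26 ± 0.15 (−0.049 to 0.56). For ROCK1 the interval was −0.24 to 0.35 and for MYH10 −0.22 to 0.36. The light chain intervals were −0.054 to 0.44 for MYL12A, −0.14 to 0.40 for MYL12B and −0.47 to 1.05 for MYL9, and that of PPP1R12A was −0.28 to 0.35. MYLK, at −1.47 to 2.06, had too wide an interval to tell. Of the 9 members tested 0 were called by edgeR, and 0 by DESeq2 or at an unadjusted p under 0.05, while 0.568% of all genes were called by edgeR. An interval that holds 0 does not show that the inhibitors act alike.

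Collagen alone was compared with the control, to ask whether collagen by itself moved these transcripts. The collagen libraries are the ones behind the choice of ROCK2, so that this comparison is not independent for it. ROCK2 gave −1.34 ± 0.28 (adjusted p = 0.107), ROCK1 −0.62 ± 0.19 (0.180), MYH10 −0.65 ± 0.18 (0.142) and MYH9 −0.54 ± 0.14 (0.135). MYL12A gave 0.49 ± 0.14 (0.146) and MYL12B 0.55 ± 0.17 (0.185). None of the 10 members passed, and 0% of the 13092 genes tested did, although 1754 genes had an unadjusted p under 0.05, ROCK1, ROCK2, MYH9, MYH10, MYL12A and MYL12B among them. MYL9 (0.39 ± 0.39), PPP1R12A (−0.25 ± 0.21) and MYLK (−0.31 ± 1.12) had intervals that included 0.

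This comparison turned on the fit. DESeq2 called ROCK2, MYH9 and MYH10 lower and MYL12A higher (4.83% of all genes), and the fit of all 4 groups together called ROCK1, ROCK2 and MYH10 lower and MYL12A and MYL12B higher (2.28%). With no filter on low counts, edgeR called ROCK2, MYH9 and MYH10 lower and MYL12B higher (1.57%). ROCK1, ROCK2, MYH9 and MYH10 were lower in the 3 collagen libraries than in all 4 control libraries, as were 6.87% of all genes, and MYL12A was higher in them, as were 6.65%. With collagen replicate 3 included, ROCK2 gave −0.87 ± 0.35 (adjusted p = 0.803).

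The inhibitor groups were last compared with the control, a group that the choice of genes did not use. The inhibitor libraries are those in which ROCK2 was chosen for its level, so that this comparison is not independent for it. Cells with collagen and an inhibitor differed from the DMSO control in ROCK2 by less than the error: −0.051 ± 0.19 with DDR1i (95% interval −0.44 to 0.33) and 0.064 ± 0.19 with RUNXi (−0.32 to 0.45). By edgeR or DESeq2, no member was called with DDR1i, where edgeR called 0.212% of 13213 genes, or with RUNXi, where it called 0.401%. With DDR1i, MYH9 gave 0.36 ± 0.17 (adjusted p = 0.965), MYL12A 0.34 ± 0.10 (0.406) and MYL12B 0.25 ± 0.11 (0.879), all 3 with an unadjusted p under 0.05. MYL12A was higher in all 4 DDR1i libraries than in all 4 control libraries, as were 1.91% of all genes.

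With RUNXi the values against the control were 0.099 ± 0.17 for MYH9, −0.041 ± 0.11 for MYH10, −0.086 ± 0.14 for ROCK1, 0.14 ± 0.10 for MYL12A and 0.12 ± 0.11 for MYL12B. MYL9 gave −0.73 ± 0.45 with RUNXi and −0.44 ± 0.45 with DDR1i. No member reached an unadjusted p under 0.05 with RUNXi. The 3 comparisons with the control share its 4 libraries.

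Some of the genes varied together across the libraries. Pearson's r of log2 CPM over the 16 libraries, collagen replicate 3 included, was 0.90 between ROCK2 and MYH10, 0.89 between ROCK1 and ROCK2, 0.83 between ROCK1 and MYH10 and 0.78 between MYL12A and MYL12B. MYH10 and MYL12B gave −0.74 and ROCK2 and MYL12A −0.61. MYH9 gave 0.73 with MYH10, 0.72 with ROCK2 and 0.60 with ROCK1. PPP1R12A gave 0.70 with ROCK1 and 0.65 with ROCK2, and MYH10 and MYL12A gave −0.64. The pairs ROCK2 and MYL9 (−0.38), MYH9 and MYL12A (−0.033) and MYL9 and MYL12B (−0.0020) were weaker. After each library was centred on the mean of its group, ROCK2 and MYH10 gave 0.84, ROCK1 and ROCK2 0.82 and MYH10 and MYL12B −0.73. MYH9 then gave 0.62 with MYH10, 0.61 with ROCK2 and 0.40 with ROCK1, and ROCK2 and MYL9 gave 0.081. The centred values kept collagen replicates 3 and 4, the highest and lowest of the collagen group for ROCK2 (54.7 and 13.5 CPM) and MYH10 (148 and 60.4 CPM). The part of these libraries in the correlations was not tested. The 16 libraries share groups and differ in depth, and the correlations are a description.

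Over 13518 genes and the 16 libraries, the patterns most like that of ROCK2 were those of ZBED6 (r = 0.956), CRYBG3 (0.942), ASAP1 (0.942), PTPRG (0.941) and SON (0.940), whose canonical transcripts have 6259 to 11697 bases. Those most like MYH9 were ACTN4 (0.981), PLEC (0.976), MYO9B (0.965), FLNA (0.961) and RRBP1 (0.958). Among the latter, ACTN4, PLEC and FLNA encode proteins that bind or link actin filaments.

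Other genes of the pathway were described by 8 lists of 68 genes. Since they were read in the contrasts that chose ROCK2, their values against collagen are also a description, and the medians of all genes were 0.0037 with DDR1i and 0.0051 with RUNXi. Of 9 other light chain kinases tested, CDC42BPA (MRCKα) was called higher with RUNXi (0.50 ± 0.14), and the medians were 0.45 and 0.38. Of 7 other phosphatase subunits and inhibitors, PPP1R14B, an inhibitor of the phosphatase, was called lower with RUNXi (−0.52 ± 0.15), and the medians were −0.19 and −0.23. The 3 other myosin II chains had no call by edgeR and medians of −0.22 and −0.49, with MYL6, the abundant essential light chain, at −0.21 ± 0.16 and −0.49 ± 0.16, and DESeq2 called MYL6 lower with RUNXi. SRF and its actin-regulated coactivators, of which 3 were tested, had no call and medians of 0.26 and 0.054.

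In the arm by which ROCK stabilizes actin through LIM kinase and cofilin, 8 genes were tested (medians 0.012 and 0.064). The slingshot phosphatases SSH1 (0.75 ± 0.20) and SSH2 (0.87 ± 0.20), which reactivate cofilin, were called higher with DDR1i, and SSH2 also with RUNXi (0.81 ± 0.20). DSTN, an actin-severing relative of cofilin, was called lower with DDR1i (−0.44 ± 0.11). Among 9 other ROCK substrates (medians 0.20 and −0.012), MSN (moesin) was called higher with DDR1i (0.44 ± 0.12) and MARCKS lower with RUNXi (−0.80 ± 0.17).

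Of 18 tested actin and stress fibre genes, the crosslinkers FLNA and ACTN4 were called higher with either inhibitor, at 0.72 ± 0.15 and 0.57 ± 0.13 with DDR1i and 0.62 ± 0.15 and 0.47 ± 0.13 with RUNXi. TAGLN, the actin-binding protein transgelin, was called lower with RUNXi (−1.22 ± 0.21). The list's median was 0.099 with DDR1i and −0.11 with RUNXi. In all, edgeR called 6 of 61 tested pathway genes higher and 1 lower with DDR1i, and 4 higher and 3 lower with RUNXi, where it called 2.47% and 4.05% of all genes. DESeq2 called 10 and 12 of them, where it called 820 of 9924 and 1155 of 10618 genes over all. With collagen replicate 3 included, MARCKS and TAGLN with RUNXi were the only calls kept among those named, and with the length trend removed DSTN with DDR1i and MARCKS and TAGLN with RUNXi were.

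TAGLN was the only pathway gene called between the inhibitors, by edgeR and by DESeq2. It was at 46.9 ± 12.8 CPM with DDR1i and 22.3 ± 4.80 CPM with RUNXi (SD, n = 4), with a log2 fold change of 1.07 ± 0.20 (adjusted p = 0.0043). It was at 35.9 ± 6.50 CPM in the control and 52.1 ± 13.0 CPM with collagen (n = 3). Against the control, edgeR called 0 of the tested pathway genes with collagen, DDR1i or RUNXi, where 14, 7 and 6 had an unadjusted p under 0.05. DESeq2 called 4 with collagen (4.83% of all genes), DSTN, SSH2 and FLNA among them, and 0 with either inhibitor.

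RUNX factors bind a short DNA motif, TGTGGT, and its presence near the starts of the genes was counted in RefSeq promoter windows (GRCh38.p14, 250 bases before to 50 after each start, either strand). It occurred in 4591 of 35116 windows (13.1%) and in 4 of 17 windows of the members. These belong to PPP1R12A (in 2 overlapping windows), MYH10 (at base 23 after the start) and MYL12A (94 bases before it). The windows of ROCK2 hold no such letters, and MYL9 has no entry. A match is a description of the sequence and not a bound site.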

How the data were processed

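Transcripts of 16 MCF10A libraries, grouped by their labels, were measured by RNA-seq. The authors deposited raw counts per gene and library, from reads aligned with STAR to hg19 per the labels, without normalization. The counting tool, its annotation and its use of strand are not given in the sources used here. Inhibitor doses and times came from the study's methods.

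Counts were fitted in R 4.3.3 with edgeR 4.0.16 (TMM, filterByExpr, robust quasi-likelihood test, Benjamini-Hochberg adjustment over all genes tested, threshold 0.05). The inhibitors and collagen shared a fit of 11 libraries, collagen and control a fit of 7, and inhibitors and control a fit of 12, with 13548, 13092 and 13213 genes. Collagen replicate 3 was left out of them. The scripts were tested on simulated data. Normalized CPM used the TMM factors over the 16 libraries, and log2 CPM a prior count of 2. Positions and canonical transcript lengths came from GENCODE lifted to GRCh37, with 21999 of 26473 names matched. Levels between genes were compared per base of canonical transcript. DESeq2 1.42.0, other scalings and filters, a replicate block and leaving out libraries were alternatives. The length trend was removed from each library with a natural spline of 4 degrees of freedom. Figures used Python 3.11.15 and matplotlib 3.10.9.

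Replicates differed by more than sampling noise in all 24 pairs (lowest chi-square per degree of freedom 18.3), so that none was counted as the same library. The members, the lists and the tests were chosen with earlier results of these data known. All 10 members were described. Pathway genes named are up to 3 per list with the smallest adjusted p under 0.05 in a comparison, and MYL6 was added after its values were seen. Some genes of the lists, and 1 list, are counted but not reported here by name. The genes most like a member were taken for ROCK2 and for the member with the smallest adjusted p between the inhibitors. Depth, 12184619 counts in the shallowest library, left MYH14 near the floor of 3 counts, which covers counting error only. MYLK, with 6 to 115 counts, was above this floor, and the cause of its wide intervals was not tested.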

Additional observations from a re-analysis of the deposited data

Results flagged for a closer look

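In each of the 40 sets of 4 libraries (10 genes in 4 groups), the gap of the highest or lowest library to its nearest neighbour was divided by the range of the set and compared with Dixon's 95% critical value. Chance passes about 1 in 20 sets, or 2 of 40, and 4 passed. Control replicate 2 was low for MYH10 (119 CPM against 143 to 145, ratio 0.902). RUNXi replicate 4 was low for PPP1R12A (40.7 CPM against 47.3 to 47.8, ratio 0.931). MYH14 was high in DDR1i replicate 4 (0.443 CPM, 7 counts, ratio 0.905) and in RUNXi replicate 4 (0.538 CPM, 14 counts, ratio 1.0), where the other 3 libraries of the group had 0 or 1 counts.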

How the results depend on the processing

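The number of members called moved with the collagen libraries, the test and the filter. It was 4 with DDR1i and 3 with RUNXi against collagen, and 0 and 0 with collagen replicate 3 included or, in an alternative chosen after seeing the data, in place of replicate 4. It was 1 and 1 (ROCK2) with the length trend removed. Leaving out 1 library gave 1 to 4 with either inhibitor; without collagen replicate 4, or for RUNXi also without RUNXi replicate 4, it was 1, and it was 2 without DDR1i replicate 2, 3 or 4. ROCK2 was called in all 11 of these fits for both inhibitors. For RUNXi, DESeq2 gave 5 (MYL12B lower) and no filter on low counts 6 (MYL9 and MYL12B lower). For collagen against the control the number was 0, and it was 4 with DESeq2, 4 with no filter and 5 with all 4 groups in the fit. For DDR1i against RUNXi it was 0 under every alternative run. The causes of these moves were not tested.

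With the replicate block the number was 6 for RUNXi against collagen (ROCK1 higher and MYL9 and MYL12A lower were added), 5 for DDR1i against collagen (MYL9 lower was added) and 1 (MYH9) for DDR1i against the control. Over all genes, 759 and 537 of 13548 and 116 of 13213 were then called, in the same order. Deviations of same-numbered libraries correlated at over 0.1 in 7 of 24 pairs (−0.0916 to 0.275), of which 6 are all the pairs of replicate 4 (0.161 to 0.275). The main fits did not take the numbers to pair the samples, and whether same-numbered libraries share an effect was not tested.

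Of 1114 recomputed log2 fold changes of members, 994 kept their direction and side of the threshold, 41 lost and 28 gained the call, and 51 changed sign, 0 of which passed the threshold in either fit. With collagen replicate 3 included, MYLK stood at −0.30 (DDR1i against collagen) and 0.064 (collagen against control). With it in place of replicate 4, MYL12A was at 0.087, MYL12B at 0.054 and MYLK at −0.66 for DDR1i against collagen, and MYLK at 0.42 for collagen against control. With the replicate block, MYLK was at 0.035 for RUNXi against collagen. With the length trend removed, MYLK was at −0.22 for DDR1i against collagen, PPP1R12A at −0.0030 for DDR1i against RUNXi, MYH10 at −0.037 and PPP1R12A at −0.022 for DDR1i against the control, and PPP1R12A at −0.022 for RUNXi against the control. This removal put the median of all genes at −0.11 for DDR1i against the control. With no filter, PPP1R12A was at −0.0034 for RUNXi against the control. Without control replicates 2 and 3, MYH10 was at −0.028 and PPP1R12A at −0.18 for DDR1i, and ROCK2 at −0.26, MYL12B at −0.052 and PPP1R12A at −0.22 for RUNXi, against the control.

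Leaving out 1 library gave these ranges where a sign changed. For DDR1i against collagen they were −0.25 to 0.0095 for MYL12A and −0.42 to 0.82 for MYLK, and for RUNXi against collagen −0.71 to 0.51 for MYLK. For DDR1i against RUNXi they were −0.032 to 0.13 for ROCK1 and −0.052 to 0.14 for PPP1R12A, and for collagen against the control −1.06 to 0.19 for MYLK. For DDR1i against the control they were −0.12 to 0.080 for ROCK1, −0.19 to 0.18 for ROCK2, −0.027 to 0.10 for MYH10, −0.70 to 0.040 for MYL9, −0.10 to 0.14 for PPP1R12A and −0.53 to 0.11 for MYLK. For RUNXi against the control they were −0.17 to 0.026 for ROCK1, −0.069 to 0.30 for ROCK2, −0.10 to 0.0072 for MYH10 and −0.14 to 0.10 for PPP1R12A.

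The differences of MYLK, with at most 115 counts in a library, and of MYH14, with at most 75, were undetermined.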
